A study of Mus musculus with 6 samples.

Results

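Matrix metalloproteinases (Mmps), Adamts proteases and tissue inhibitors of metalloproteinases (Timps) were followed in RNA sequencing of sorted mouse calvarial osteoblasts. The genes were chosen by family from a written list of 33 symbols, 17 Mmps, 4 Timps and 12 Adamts proteases other than the procollagen proteinases. All 33 were found once each among the 27179 gene IDs of the count table. The skull vaults (calvaria) of C57Bl/6J pups aged 5 days were digested with collagenase, and cells were sorted on a GFP transgene controlled by Osteocalcin-Cre, a recombinase driver of mature osteoblasts. In 3 libraries the mice were a conditional knockout of Cdc73, also named Hrpt2, which encodes the parafibromin subunit of the Paf1 transcription elongation complex, and 3 libraries came from wildtype mice. The labels do not say whether the wildtype mice carried the Cre driver beyond the common GFP sort, nor whether each library was 1 pup or a pool, and the p-values therefore rest on the spread among 3 libraries a group, some of which may be technical.

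Mmps are zinc endopeptidases that are made as inactive precursors and, once activated, cut collagens and other matrix proteins. Timps bind the active site of Mmps and block it, and Timp3 also blocks several Adam and Adamts enzymes. Adamts proteases are secreted relatives of the Adam enzymes with thrombospondin repeats, and a subgroup of them cuts the large proteoglycans aggrecan and versican. In bone, collagen cleavage by Mmp13 and Mmp14 and gelatin cleavage by Mmp2 and Mmp9 belong to matrix turnover by osteoblasts, osteocytes, hypertrophic chondrocytes and osteoclasts.

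5 of the listed Mmp genes lie in a cluster on mouse chromosome 9, in the order Mmp13, Mmp12, Mmp3, Mmp10 and Mmp8. Successive listed genes are 46366 to 85360 bases apart. The list leaves out Mmp1b, which shares 157 exon bases with Mmp12. Promoter sequences of listed cluster genes are shown because some share a motif while the levels of the genes are far apart. Sequences were taken from the RefSeq promoter table of build GRCm38.p6, which held 21 of the 33 members in windows of 250 bases before to 50 bases after the start site. The 150 bases just before the start are printed 5′ to 3′ on the gene's strand for the 4 cluster members with an AP-1 motif. The table held 2 promoters of Mmp12, and the one with the AP-1 match is printed. The other had no AP-1 match, and the printed window lies inside the annotated gene (chr9 from 7344397 to 7360461). Adamts1 and Timp3 are added because all of their knockout libraries lay above all wildtype libraries and the table holds their promoters. Capitals mark matches on either strand to the AP-1 motif with the letters TGANTCA, the RUNX motif with TGTGGT, the TATA box with the letters TATAAA, and the GC box with GGGCGG. No printed match overlapped another. The windows are chr9:7272364-7272513 (plus strand) for Mmp13, chr9:7445672-7445821 (plus) for Mmp3, chr9:7502192-7502341 (plus) for Mmp10, chr9:7347224-7347373 (plus) for Mmp12, chr16:85803114-85803263 (minus) for Adamts1 and chr10:86300262-86300411 (plus) for Timp3.
Mmp13: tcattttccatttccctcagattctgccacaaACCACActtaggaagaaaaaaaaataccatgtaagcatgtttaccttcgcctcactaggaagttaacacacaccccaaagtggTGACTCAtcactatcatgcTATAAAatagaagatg
Mmp3: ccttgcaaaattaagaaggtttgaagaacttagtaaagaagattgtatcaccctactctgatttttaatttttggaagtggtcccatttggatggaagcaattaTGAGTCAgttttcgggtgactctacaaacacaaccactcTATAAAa
Mmp10: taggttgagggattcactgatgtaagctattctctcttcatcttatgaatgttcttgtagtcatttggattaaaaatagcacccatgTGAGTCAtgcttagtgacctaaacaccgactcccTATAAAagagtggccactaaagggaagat
Mmp12: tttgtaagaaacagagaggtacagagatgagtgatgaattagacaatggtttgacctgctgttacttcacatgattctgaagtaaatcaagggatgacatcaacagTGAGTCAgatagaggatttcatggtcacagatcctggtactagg
Adamts1: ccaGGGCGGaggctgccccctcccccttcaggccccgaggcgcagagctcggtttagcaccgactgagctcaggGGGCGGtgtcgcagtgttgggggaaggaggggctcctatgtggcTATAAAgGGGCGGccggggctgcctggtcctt
Timp3: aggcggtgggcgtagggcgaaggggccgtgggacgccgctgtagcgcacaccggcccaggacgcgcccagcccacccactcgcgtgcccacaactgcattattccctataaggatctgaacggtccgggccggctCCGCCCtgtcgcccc

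AP-1 is the motif of Fos and Jun dimers, and it was found in the promoters of 4 of the 21 members (19.0%), against 9.0% of all 27025 genes with a promoter in the table. Those 4 were Mmp3, Mmp10, Mmp12 and Mmp13. Mmp13 also held the RUNX motif, the letters bound by Runx2, 118 bases before its start, and Mmp14 and Mmp23 held it too (3 of 21 members, 14.3%, against 18.9% of all genes). A TATA match stood in 6 of 21 members (28.6%, against 15.7% of all genes) and a GC box in 13 of 21 (61.9%, against 38.2%). A gene with several promoters in the table was counted if any of them held the motif. Over single promoters the shares were 7.8% for AP-1, 16.8% for RUNX, 13.6% for TATA and 35.7% for the GC box. These shares are descriptions, and a match is not a bound site. The motif-bearing cluster members were far apart in level: Mmp13 was among the most abundant members, while Mmp3, Mmp10 and Mmp12 had 0 to 16 counts per library.

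Library totals were 13591925 to 20993962 counts, and values below are CPM, counts relative to library size after scaling with TMM factors. Cdc73 itself measured 14.0, 14.7 and 14.4 CPM in knockout 1, 2 and 3, against 20.5, 12.8 and 21.7 CPM in wildtype 1, 2 and 3 (edgeR adjusted p = 0.428). Wildtype 2 lay below all knockout libraries and the labels do not name the deleted exons, so this level does not check the labels, and directions refer to the libraries as labelled. Across genes (log2 CPM), Pearson's r of wildtype 1 was 0.973 to 0.983 with the knockout libraries, but 0.940 with wildtype 2 and 0.945 with wildtype 3, and genes are not independent replicates. Osteoblast markers were abundant in every library, with Col1a1 at 143517 to 214896 CPM in knockout and 168662 to 185517 CPM in wildtype libraries. Markers of other cells were detected as well, and their summed levels did not overlap between the groups for chondrocytes (11896 to 26872 CPM in knockout, 3563 to 10165 CPM in wildtype), neutrophils (55.7 to 188 and 20.0 to 54.1 CPM), macrophages (151 to 359 and 91.4 to 135 CPM) and endothelial cells (146 to 251 and 54.5 to 146 CPM, where the lowest knockout and the highest wildtype library differed by less than the rounding). In a bulk library, a difference in the number of cells of a type and a difference in RNA per cell cannot be told apart.

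To compare members with each other, CPM were divided by the length of each gene's exons (CPM per kb). Mmp2, the gelatinase that Mmp14 activates at the cell surface, had the highest level in both groups, at 385 ± 36.3 CPM per kb in knockout and 365 ± 27.6 in wildtype libraries (SD, n = 3 each, as throughout). Mmp13, the main collagenase of rodent bone, came next at 309 ± 92.1 and 267 ± 39.9 CPM per kb. It was followed by the inhibitors Timp1, at 213 ± 51.5 in knockout and 240 ± 85.8 in wildtype, and Timp2, at 194 ± 10.3 and 167 ± 25.8 CPM per kb. Mmp14, a membrane-anchored collagenase, reached 94.9 ± 4.61 and 90.5 ± 8.43 CPM per kb. Among wildtype libraries, Mmp2 lay above Mmp13, Timp2 above Mmp14, Mmp14 above Mmp23 and Mmp23 above Mmp9 in every library, whereas Mmp13 overlapped Timp1, and Timp1 overlapped Timp2. Below Mmp9, most neighbours in this order overlapped.

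**Figure D1:**
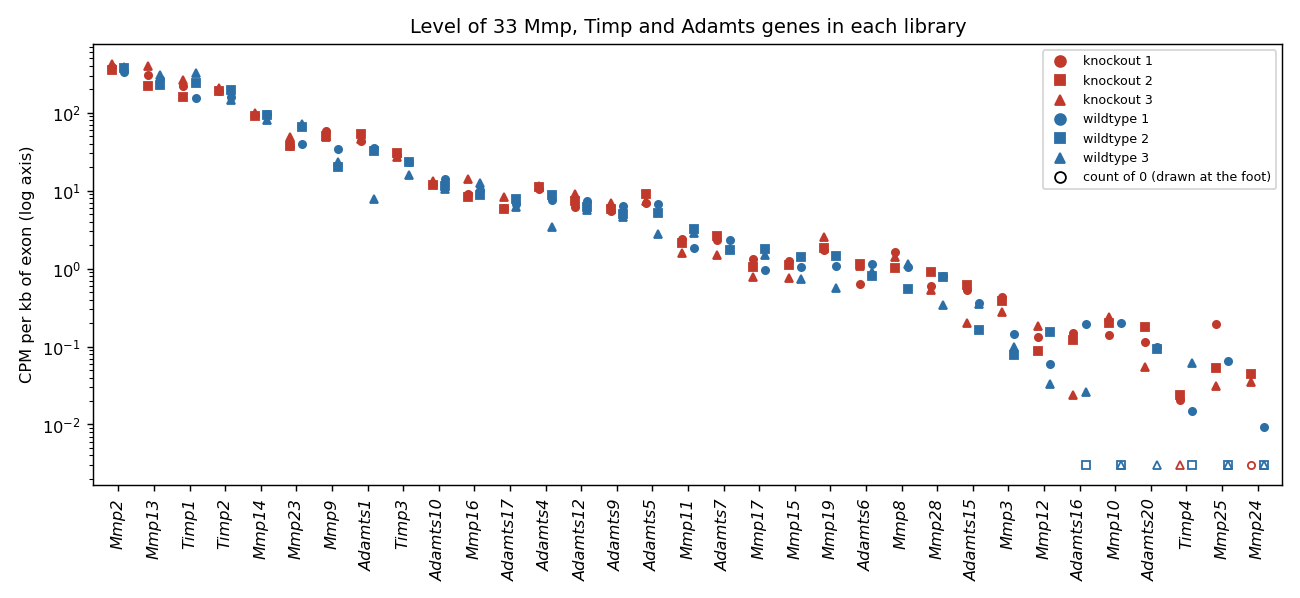
Level of each of the 33 genes in every library, as CPM per kb of exon on a log axis, ordered by the wildtype mean, with knockout libraries in red left of wildtype libraries in blue and open symbols for counts of 0. Mmp2, Mmp13, Timp1 and Timp2 lie at the top in both groups, and 6 genes at the right end have a count of 0 in at least 1 library.

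Mmp12, Mmp3, Mmp10, Mmp24, Mmp25, Timp4, Adamts16 and Adamts20 were at the other end, each below 0.4 CPM per kb in both groups. Of the 33 members, 27 had a count in every library and none was at 0 in all 6. Mmp24, a membrane-type Mmp of neurons, had 0, 3 and 2 counts in the knockout libraries, against 1, 0 and 0 in those of the wildtype. Timp4 had 2, 2 and 0 counts against 2, 0 and 6, and Mmp25, a membrane-type Mmp of neutrophils, had 17, 4 and 2 against 8, 0 and 0. A count of 0 allows a level of up to 3 counts, which is 0.131 to 0.247 CPM depending on the library.

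The comparison of knockout with wildtype asks which of these transcripts differ with the knockout of Cdc73 in the sorted cells. After the filter on low counts, 28 of the 33 members were tested in a fit over 13505 genes, and Mmp3, Mmp10, Mmp24, Mmp25 and Timp4 were not. No member had an edgeR adjusted p under 0.05 (Benjamini-Hochberg over all genes tested), and 0% of all genes did. At an unadjusted p under 0.05 there were 5 members higher (17.9%, against 8.26% of all genes tested) and 0 lower (against 6.35%). In 6 members the groups did not overlap and the knockout was higher (21.4%, against 10.6% of all genes), and in 0 it was lower without overlap (against 9.81%). The 6 were Mmp9, Mmp19, Timp3, Adamts1, Adamts4 and Adamts5. A positive log2 fold change was found in 21 of the 28 tested members (75.0%, against 49.3% of all genes), with a median of 0.20 beside -0.0058 for all genes, but with library size alone 13 were positive and the medians were -0.021 and -0.21.

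**Figure D2:**
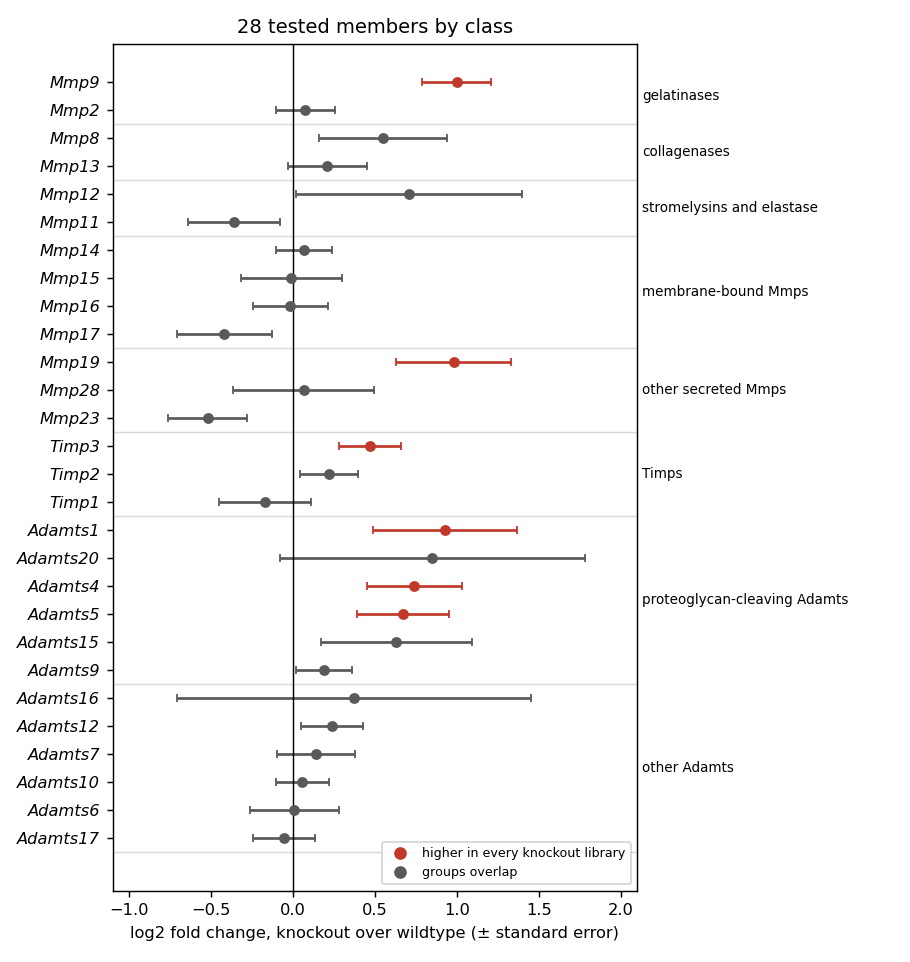
Log2 fold change of knockout over wildtype with its standard error for the 28 tested members, grouped by class, with members whose knockout libraries all lay above the wildtype libraries in red. All 6 Adamts genes of the proteoglycan-cleaving class lie right of 0, and the membrane-bound Mmps lie at or left of it except Mmp14 at 0.068.

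Among the gelatinases, which cut denatured collagen, Mmp9 had the largest log2 fold change of the 28 tested members and Mmp2 one near 0. Mmp9 (gene ID 17395) lies on mm10 chromosome 2 from 164940326 to 164955850. Mmp9 measured 204, 177 and 172 CPM in knockout 1, 2 and 3, against 120, 72.1 and 83.3 CPM in wildtype 1, 2 and 3. The groups did not overlap, and wildtype 1 was the wildtype library nearest to the knockout libraries. The means were 184 ± 17.2 and 91.9 ± 25.2 CPM, a log2 fold change of 1.00 ± 0.21 (± standard error) and a fold of 2.01, which did not pass in edgeR (adjusted p = 0.273). DESeq2 called Mmp9 (adjusted p = 0.000915), where 1.61% of all genes were called higher, and edgeR called it without wildtype 1 (1.23 ± 0.18, adjusted p = 0.0301), where 2.13% were. It measured 0.61 ± 0.21 against wildtype 1 alone.

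Mmp2 measured 1304, 1174 and 1419 CPM in knockout libraries, against 1125, 1280 and 1291 CPM in wildtype libraries. The groups overlapped, and the log2 fold change of 0.076 ± 0.18 was smaller than its standard error and turned to -0.13 with library size alone.

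Mmp9 is also a gene of osteoclasts, neutrophils and macrophages, and marker genes of these cells were set beside it. Of 9 osteoclast markers, 7 were tested and 6 had a positive log2 fold change, with a median of 0.83. Their summed level overlapped between the groups (462 to 567 CPM in knockout, 403 to 560 CPM in wildtype), and Ocstamp, Dcstamp, Calcr and Oscar were at 0 in some library. Acp5, the tartrate-resistant acid phosphatase of osteoclasts, measured 42.2, 36.1 and 35.6 CPM in knockout libraries, against 22.1, 22.6 and 24.8 CPM in wildtype libraries, and the groups did not overlap (0.71 ± 0.15, edgeR adjusted p = 0.273). Atp6v0d2, a subunit of the osteoclast proton pump, measured 5.76, 6.74 and 5.59 against 3.37, 1.11 and 0.537 CPM. Ctsk, the osteoclast protease cathepsin K, overlapped between the groups at 333, 307 and 425 against 292, 318 and 490 CPM (-0.047 ± 0.23). The fusion receptor gene Dcstamp and its relative Ocstamp reached at most 1.38 CPM in any library, and both had a count of 0 in wildtype 2.

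Neutrophil markers had a median log2 fold change of 1.60 with 8 of 8 tested genes positive, and macrophage markers one of 1.19 with 12 of 12 positive. Of the neutrophil markers, Elane, Cebpe and Fcnb were at 0 in some library. Relative to the mean of the 6 libraries, the osteoclast list stood at 0.69, 0.39 and 0.51 on the log2 scale in knockout 1, 2 and 3 and at 0.06, -0.98 and -0.68 in wildtype 1, 2 and 3. Mmp9 stood at 0.67, 0.46 and 0.42 and at -0.1, -0.83 and -0.62 in the same order. The chondrocyte, neutrophil and endothelial lists were also lowest in wildtype 2 on this scale, at -2.1, -1.58 and -1.21. Ocstamp, Dcstamp, Calcr and Oscar were all at 0 in wildtype 2. Calcr and Oscar were also at 0 in wildtype 3, and Calcr in knockout 2 and 3. Among wildtype libraries, Ctsk and Acp5 were lowest in wildtype 1, at 292 and 22.1 CPM. Nfatc1 and Atp6v0d2 were lowest in wildtype 3, at 30.1 and 0.537 CPM, and Itgb3 in wildtype 2, at 10.6 CPM. As a sum, the osteoclast markers were at 403, 403 and 560 CPM in wildtype 1, 2 and 3. The part of osteoclasts, neutrophils and macrophages in the difference of Mmp9 was not tested.

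The collagenases Mmp13 and Mmp8 overlapped between the groups. Mmp13 measured 818, 583 and 1075 CPM in knockout libraries, against 723, 601 and 813 CPM in wildtype libraries. Knockout 3 was the highest library and knockout 2 the lowest, so the spread within the knockout group was wider than the difference between the means (825 ± 246 and 712 ± 107 CPM). The log2 fold change was 0.21 ± 0.24, and it was -0.038 without knockout 3 and -0.017 with library size alone. Col10a1, the collagen of hypertrophic chondrocytes, which also express Mmp13, measured 567, 139 and 664 CPM in knockout libraries, against 182, 166 and 16.3 CPM in wildtype libraries. Knockout 2 was thus the lowest knockout library for both genes, whereas wildtype 3 was the highest wildtype library for Mmp13 and the lowest for Col10a1. The 3 hypertrophic chondrocyte markers differed in direction, and the groups overlapped for each. Log2 fold changes were 1.91 ± 0.78 for Col10a1 and 0.90 ± 0.38 for Ihh, but -0.33 ± 0.20 for Panx3. Panx3 measured 159, 147 and 217 CPM in knockout libraries, against 203, 260 and 194 CPM in wildtype libraries. The part of hypertrophic chondrocytes in the Mmp13 values was not tested. Mmp8, the collagenase stored in neutrophil granules, was rare, at 3.96, 2.50 and 3.37 against 2.54, 1.32 and 2.81 CPM (0.55 ± 0.39).

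The stromelysins and the macrophage elastase Mmp12 were at low levels. Mmp3, stromelysin-1, had 13, 10 and 6 counts in knockout libraries, against 6, 2 and 3 counts in wildtype libraries. After scaling these were 0.780, 0.695 and 0.494 CPM against 0.262, 0.139 and 0.179 CPM, and the groups did not overlap, but the gene failed the filter and was not tested. Mmp10, stromelysin-2, had 4, 5 and 5 counts against 8, 0 and 0. Mmp12 measured 0.960, 0.625 and 1.32 against 0.437, 1.11 and 0.239 CPM. Mmp11, stromelysin-3, which furin activates inside the cell, had a negative log2 fold change, at 6.72, 5.91 and 4.36 against 5.11, 9.04 and 7.82 CPM (-0.36 ± 0.28), and its groups overlapped.

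The groups overlapped for every membrane-bound Mmp, and the 4 tested log2 fold changes had a median of -0.013. Mmp14 measured 554, 545 and 597 CPM in knockout libraries, against 576, 559 and 482 CPM in wildtype libraries. Its log2 fold change of 0.068 ± 0.17 was among those with the smallest standard errors, and it was -0.14 with library size alone. Mmp16, a transmembrane Mmp, measured 77.5, 72.2 and 123 against 89.0, 75.8 and 110 CPM (-0.016 ± 0.23), with replicate 3 the highest of each group. The GPI-anchored Mmp17 was lower on average, at 6.92 ± 1.76 against 9.33 ± 2.83 CPM (-0.42 ± 0.29), and the log2 fold change of Mmp15 was within its standard error (-0.0095 ± 0.31).

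Mmp19 and Mmp23, secreted or shed Mmps of other domain layouts, had log2 fold changes of opposite sign. Mmp19 (gene ID 58223, mm10 chromosome 10 from 128790910 to 128800827) measured 6.12, 6.53 and 9.05 CPM in knockout libraries, against 3.85, 5.15 and 1.97 CPM in wildtype libraries, without overlap. Its log2 fold change was 0.98 ± 0.35 (edgeR adjusted p = 0.302), and 0.68 without wildtype 3. In the GENCODE annotation Mmp19 shares 789 exon bases with Tmem198b on the opposite strand, which measured 7.02, 6.18 and 6.33 against 4.24, 6.54 and 7.64 CPM. No source used here says whether counting used strand, so reads from such shared bases cannot be told apart.

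Mmp23, which is released from the membrane by cleavage, had the most negative log2 fold change of the members. It measured 86.6, 86.4 and 115 CPM in knockout libraries, against 92.3, 155 and 165 CPM in wildtype libraries. Wildtype 1 lay among the knockout libraries, so the groups overlapped. The log2 fold change was -0.52 ± 0.24 (edgeR adjusted p = 0.346). It was -0.76 without wildtype 1 (adjusted p = 0.0606) and 0.046 against wildtype 1 alone. With library size alone it was -0.74, and the groups did not overlap. Mmp28, epilysin, measured 2.60 ± 0.762 and 2.48 ± 1.02 CPM (0.066 ± 0.43).

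Of the inhibitors, Timp3 was higher in every knockout library and Timp1 and Timp2 overlapped. Timp3, which is bound to the matrix and blocks Adamts4 and Adamts5 besides Mmps, lies on mm10 chromosome 10 from 86300412 to 86349505 (gene ID 21859). It measured 233, 246 and 221 CPM in knockout libraries, against 188, 190 and 128 CPM in wildtype libraries. The means were 233 ± 12.4 and 168 ± 35.3 CPM (0.47 ± 0.19, edgeR adjusted p = 0.322), and the log2 fold change was 0.29 without wildtype 3. With library size alone it was 0.27 and the groups overlapped. Timp3 shares 1733 exon bases with Syn3 on the opposite strand, and Syn3 reached at most 0.973 CPM in any library. Timp2, the inhibitor that also takes part in the activation of Mmp2 by Mmp14, measured 732, 733 and 802 against 621, 762 and 567 CPM (0.22 ± 0.18). Timp1, the X-linked inhibitor induced by growth factors, varied more between libraries than Timp2 or Timp3, at 193, 142 and 233 against 138, 212 and 290 CPM (-0.17 ± 0.28), and its log2 fold change was 0.10 without wildtype 3.

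The proteoglycan-cleaving Adamts genes were the class with the most members higher in every knockout library, 3 of 6, beside 10.6% of all genes tested. The class was also among the largest, and the share among gelatinases was 1 of 2. All 6 genes of the class had a positive log2 fold change, beside 49.3% of all genes tested. Their median was 0.70, although Adamts9 was at -0.026 with library size alone. Their summed level was 443, 526 and 485 CPM in knockout libraries, against 393, 345 and 160 CPM in wildtype libraries. This class was listed with earlier results of these data known, so the count describes it and is not a test.

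Adamts1, a versican- and aggrecan-cleaving protease that parathyroid hormone induces in rodent osteoblasts, lies on mm10 chromosome 16 from 85793827 to 85803113 (gene ID 11504). It measured 228, 280 and 245 CPM in knockout libraries, against 186, 169 and 41.6 CPM in wildtype libraries. The groups did not overlap, and wildtype 3 stood far below the other libraries. The log2 fold change was 0.93 ± 0.44 (edgeR adjusted p = 0.355), and it was 0.49 without wildtype 3 (adjusted p = 0.443) and 0.42 against wildtype 1 alone.

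Adamts5 (gene ID 23794), the main aggrecanase of mouse cartilage, is the neighbour of Adamts1 on chromosome 16, from 85858157 to 85901125, with 55043 bases between them. It measured 74.5, 97.4 and 78.9 CPM in knockout libraries, against 71.9, 55.2 and 30.2 CPM in wildtype libraries. The lowest knockout and the highest wildtype library were close, and wildtype 3 was again the lowest. The log2 fold change was 0.67 ± 0.28 (edgeR adjusted p = 0.325), 0.38 without wildtype 3 and 0.21 against wildtype 1 alone.

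Adamts4 (gene ID 240913, mm10 chromosome 1 from 171250129 to 171262267), the other classical aggrecanase, was the steadiest of these genes among knockout libraries, at 51.1, 53.0 and 55.2 CPM, against 36.5, 42.5 and 16.6 CPM in wildtype libraries. The groups did not overlap (0.74 ± 0.29, edgeR adjusted p = 0.317), and the log2 fold change was 0.42 without wildtype 3. For Adamts1, Adamts4 and Adamts5, as for Timp3, the groups overlapped when libraries were scaled by library size alone, whereas those of Mmp9, Mmp19 and Mmp3 did not.

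**Figure D3:**
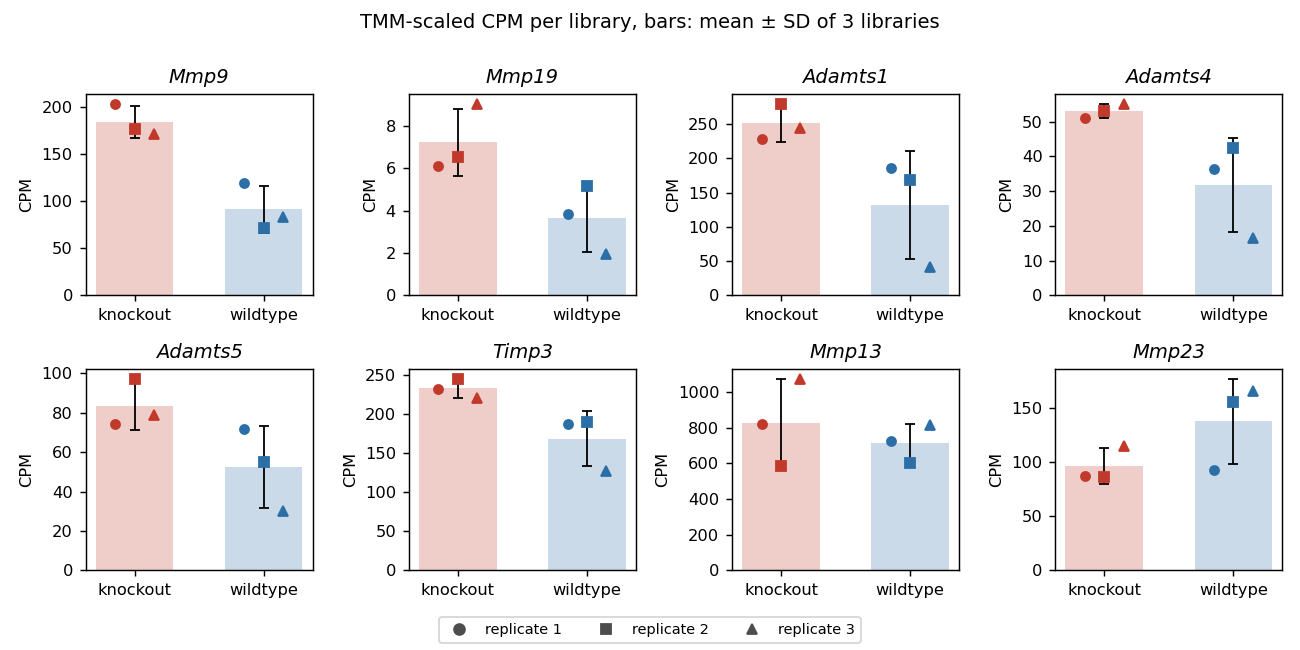
TMM-scaled CPM of 8 members in each library, with knockout left of wildtype, points for libraries and bars for the mean ± SD of 3 libraries. The groups do not overlap in the first 6 panels, wildtype 3 is lowest in Mmp19, Adamts1, Adamts4, Adamts5 and Timp3, and the groups overlap for Mmp13 and Mmp23.

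Wildtype 3 was the lowest of the 6 libraries in 14 of the 28 tested members (50%), beside 27.7% of all genes tested. Knockout 3 was the highest in 11 members (39.3%), beside 10.2% of all genes. Knockout 3 had the lowest TMM factor, 0.813, against 0.971 to 1.09 in the other libraries, and a lower factor raises CPM. The part of this factor in the share was not tested. Wildtype 1 lay nearer to the mean of the knockout libraries than to that of the other wildtype libraries in 20 of 28 members (71.4%), beside 69.7% of all genes. Without wildtype 1 the log2 fold changes were 1.01 for Mmp19, 0.54 for Timp3, 1.24 for Adamts1, 0.83 for Adamts4 and 0.95 for Adamts5, and edgeR called none of these. Against wildtype 1 alone they were 0.89 for Mmp19, 0.30 for Timp3 and 0.53 for Adamts4.

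Aggrecan and other cartilage genes include substrates of these enzymes, and chondrocyte markers are given beside them. All 13 chondrocyte markers had a positive log2 fold change, from 0.56 to 2.40, and none was at 0 in any library. The aggrecan gene Acan measured 1033, 617 and 478 CPM in knockout libraries, against 371, 146 and 90.1 CPM in wildtype libraries (1.81 ± 0.49, edgeR adjusted p = 0.273). Relative to the mean of the 6 libraries, the chondrocyte list stood at -2.1 on the log2 scale in wildtype 2 and -1.84 in wildtype 3. Adamts1 stood at 0.03 and -1.99 in those libraries, Adamts4 at 0.1 and -1.25 and Adamts5 at -0.21 and -1.08. Among the wildtype libraries, the hypertrophic chondrocyte, macrophage and skeletal muscle lists were also lowest in wildtype 3, as these Adamts genes were. In wildtype 1, 2 and 3 the hypertrophic chondrocyte list had a mean log2 CPM of 6.01, 6.15 and 4.39. The macrophage list was at 2.91, 2.81 and 2.25 and the skeletal muscle list at 0.76, 1.48 and -1.23. By mean log2 CPM, the other marker lists were lowest in wildtype 1 or 2. As sums, 3 of them were lowest in wildtype 3. In wildtype 1, 2 and 3 the chondrocyte list summed to 10165, 4079 and 3563 CPM. The endothelial list summed to 146, 62.5 and 54.5 CPM, and the fibroblast and suture list to 2462, 3185 and 2175 CPM. Of all genes tested, 27.7% were lowest of the 6 libraries in wildtype 3. Endothelial markers were positive in 12 of 12 tested genes (median 1.31) and fibroblast and suture markers in 7 of 10 (0.32), against 1 of 6 skeletal muscle markers (-0.36), 2 of 9 osteoblast markers (-0.37) and 2 of 6 osteocyte markers (-0.29). The part of these cells in the Adamts values was not tested.

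**Figure D4:**
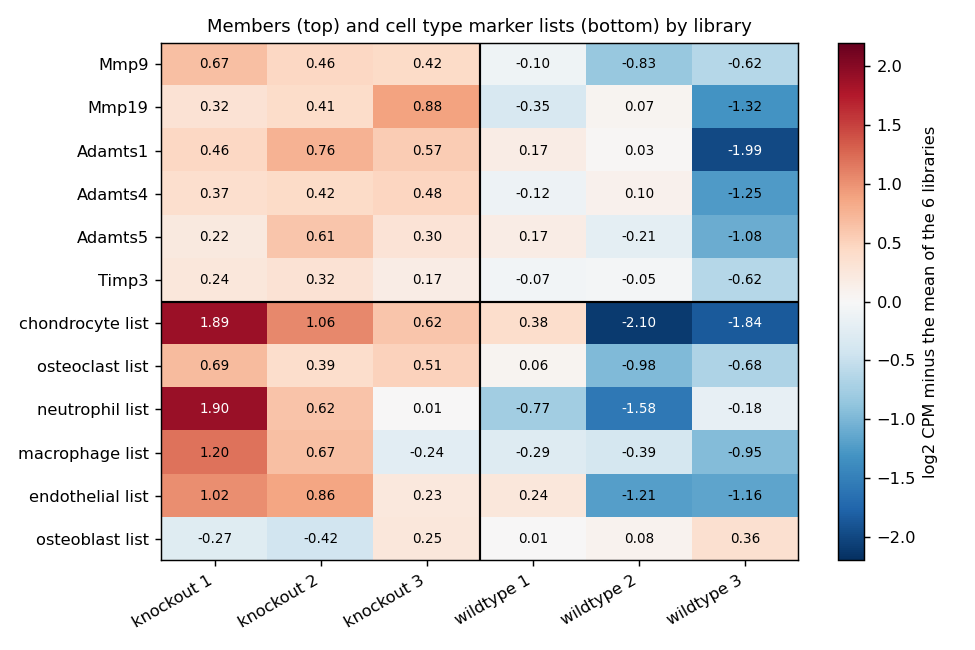
Log2 CPM of 6 members and mean log2 CPM of 6 marker lists in each library, minus the mean of the 6 libraries, with knockout libraries left of wildtype libraries. Mmp9 and the osteoclast list are lowest in wildtype 2, at -0.83 and -0.98, and the list includes Ocstamp, Dcstamp, Calcr and Oscar, which have a count of 0 in wildtype 2. The chondrocyte, neutrophil and endothelial lists are lowest there too, at -2.1, -1.58 and -1.21. As summed CPM, which is not drawn, the chondrocyte and endothelial lists are lowest in wildtype 3, at 3563 and 54.5 CPM. Adamts1, Adamts4 and Adamts5 are lowest in wildtype 3, at -1.99, -1.25 and -1.08, and so is the macrophage list, at -0.95.

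For the remaining Adamts genes the groups overlapped. Adamts9, a versican-cleaving protease of the same class as Adamts20, measured 91.0 ± 11.0 and 79.7 ± 13.5 CPM (0.19 ± 0.17). It shares 1381 exon bases with A730049H05Rik on the opposite strand, which reached at most 0.329 CPM. Adamts15 and Adamts20 were rare, at 4.63 ± 2.27 and 2.99 ± 1.15 CPM and at 1.04 ± 0.553 and 0.570 ± 0.494 CPM. Adamts12, which cuts the cartilage protein Comp as Adamts7 does, measured 68.2, 79.8 and 100 against 81.6, 67.3 and 60.8 CPM (0.24 ± 0.19). Adamts7 followed at 13.4 ± 3.64 and 12.2 ± 1.99 CPM (0.14 ± 0.24). Adamts10 and Adamts17, which are linked to fibrillin microfibrils, measured 102 ± 5.48 and 98.4 ± 15.1 CPM (0.058 ± 0.16) and 51.8 ± 11.1 and 53.8 ± 6.39 CPM (-0.054 ± 0.19). Adamts6 was at 7.45 ± 2.15 and 7.36 ± 1.35 CPM (0.0086 ± 0.27), and Adamts16 had 17, 12 and 2 counts against 30, 0 and 3.

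Genes that work with these enzymes were read from 9 lists, and no gene of any list passed in edgeR over all genes with all 6 libraries. The counts that follow are genes at an unadjusted p under 0.05, to be read against the 8.26% of all genes higher and 6.35% lower. Of the 7 genes of procollagen cleavage, which trim the ends of collagen rather than degrade it, 1 was higher and 0 lower. It was the enhancer protein gene Pcolce2, at 33.2 ± 14.4 against 18.9 ± 6.46 CPM (0.81 ± 0.33). Of 7 Adamts-like genes, which lack the protease domain, 2 were higher and 0 lower, namely Papln (1.71 ± 0.64, at 3.13 ± 0.926 against 0.913 ± 0.885 CPM) and Adamtsl2 (2.07 ± 0.91), both rare. Of 10 Adam proteases 1 was higher and 0 lower. This was Adam22, at 15.1, 17.7 and 14.1 against 10.6, 7.37 and 6.93 CPM (0.91 ± 0.22).

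The plasmin system, which activates several Mmps, was represented by 11 genes, 10 of them tested, of which 2 were higher and 0 lower. They included the plasminogen activator gene Plat, which measured 51.2, 43.2 and 48.6 CPM in knockout libraries, against 29.2, 39.4 and 15.6 CPM in wildtype libraries (0.77 ± 0.28). Its groups did not overlap, and wildtype 3 was the lowest library. Of 11 cathepsins and cystatins 2 were higher and 0 lower, Ctss, a cathepsin of macrophages (1.29 ± 0.38), and Ctsl (205 ± 15.2 against 148 ± 10.9 CPM, 0.47 ± 0.15). Among 9 other inhibitors and uptake receptors 3 were higher and 1 lower. Reck, a membrane-anchored inhibitor of Mmps, measured 89.1, 92.1 and 87.9 against 80.1, 69.3 and 57.1 CPM (0.38 ± 0.16). Tfpi2 (1.56 ± 0.44) and the broad protease trap A2m (2.43 ± 0.69) were higher in every knockout library, and the proteoglycan gene Spock1 was lower on average (-0.78 ± 0.33) with overlapping groups. A2m, like the chondrocyte list, was lowest in wildtype 2 and 3, at 41.6, 25.3 and 16.0 against 11.6, 1.25 and 2.03 CPM. Of 5 activators of Mmps 1 was higher and 0 lower, the proprotein convertase Pcsk5, at 78.9 ± 3.81 against 51.8 ± 11.4 CPM (0.61 ± 0.19).

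Of 14 matrix substrates 13 were tested, of which 5 were higher and 0 lower. They included Col2a1 (2.40 ± 0.79), Comp (1.87 ± 0.56) and the brevican gene Bcan (0.57 ± 0.20), while Col1a1, the collagen chain of bone, was at -0.10 ± 0.25. Single libraries moved several of these related genes. Leaving out 1 library at a time gave log2 fold changes of 1.98 to 4.03 for A2m, 1.28 to 2.18 for Tfpi2, 1.29 to 2.88 for Papln, 1.51 to 3.49 for Adamtsl2, 1.85 to 4.06 for Col2a1, 1.43 to 2.91 for Comp and 1.43 to 2.57 for Acan, each highest without wildtype 1. Without that library edgeR called A2m, Acan, Comp and Col2a1 (adjusted p = 0.0301 each). There edgeR also called Tfpi2 and Adam22 (adjusted p = 0.0384 each) and Papln (adjusted p = 0.0444), but not Adamtsl2. Of all 13823 genes tested without wildtype 1, 2.13% were called higher and 0.832% lower, so calls became more frequent over the whole table. Without knockout 1, Pcolce2 was at 0.39 and Ctss at 0.72. Of 12 transcription factors known to act at Mmp promoters 4 were higher and 0 lower. Ets2 measured 82.0, 79.6 and 53.2 against 51.5, 36.0 and 20.5 CPM (0.99 ± 0.31), Fosl2 230, 273 and 187 against 184, 139 and 59.0 CPM (0.85 ± 0.35) and Junb 832, 746 and 733 against 598, 627 and 365 CPM (0.54 ± 0.22). Wildtype 3 was the lowest library for all of these, and also for Ets1 at 14.8 CPM (0.96 ± 0.35). Without wildtype 3 the log2 fold changes were 0.70 for Ets2, 0.50 for Fosl2, 0.32 for Junb and 0.63 for Ets1, and 0.47 for Plat. Without wildtype 1, Ets2 was at 1.33 and was called by edgeR (adjusted p = 0.0499). Fos, the most abundant of the 12, overlapped between the groups at 1434, 1397 and 2109 against 1890, 1828 and 1424 CPM (-0.058 ± 0.22). The most abundant genes of the other lists had log2 fold changes of -0.13 ± 0.20 for Pcolce, 0.33 ± 0.26 for Thsd4, -0.16 ± 0.20 for Adam12, -0.051 ± 0.23 for Fap, 0.23 ± 0.18 for Ctsb, -0.069 ± 0.25 for Sparc and -0.016 ± 0.18 for Pcsk6.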

How the data were processed

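Transcript levels were read from 1 table of raw counts of reads per gene, deposited by the authors with no normalization (6 libraries, 0 columns without a sample). Per the submitters' processing notes, CASAVA 1.7, Subread and featureCounts were used with build mm10. No source used here gives the RNA selection or the strand setting. Names came from RefSeq (GRCm38.p6) and GENCODE M21 for 93.1% of IDs. Genes passing filterByExpr (13505) were scaled with TMM (factors 0.813 to 1.09) and tested, knockout against wildtype, with the two-sided quasi-likelihood test of edgeR 4.0.16 in R 4.3.3, all 6 libraries, no covariates, Benjamini-Hochberg threshold 0.05. The common coefficient of variation was 24.2%. A standard error is the absolute log2 fold change over the root of F. Library pairs differed by a chi-square per degree of freedom of 18.3 to 139, so none was counted as a duplicate. CPM per kb used the union of GENCODE exons. Mean log2 CPM used a prior count of 2. The fit was tested on simulated data.

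Members and gene lists were chosen with earlier results of these data known. All members are named, and each related list gives up to 4 genes of smallest unadjusted p under 0.05 plus the most abundant. Alternatives were other scalings and filters, DESeq2 1.42.0, limma 3.58.1 voom with and without quality weights, robust estimates, a replicate block, leaving out each library, and wildtype 1 as the only control. Floors cover counting error only, whereas SDs and standard errors also hold the spread between libraries. Some results on related genes and on genes that share exon bases with members are not reported here.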

Additional observations from a re-analysis of the deposited data

How the results depend on the processing

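Of 17 alternatives, 4 changed the count of 0 genes called over the whole table (no filter 24, DESeq2 248, replicate block 236, and leaving out single libraries 0 to 409, the 409 without wildtype 1). Members called were 1 (Mmp9) with DESeq2, with the replicate block and without wildtype 1, and 0 otherwise. Deviations of same-numbered libraries from their group means correlated at 0.115, -0.0743 and 0.222, and those of other pairs at -0.354 to 0.347. With 3 libraries a group, these values cannot show whether the replicate numbers pair the samples. The median of the tested members was 0.12 to 0.26 when single libraries were left out and -0.021 with library size alone, which shifted all genes to -0.21. Over 473 values of the 28 members, 417 kept their direction and side of the threshold, 53 in 16 members changed sign and 3 gained a call. As edgeR with all 6 libraries called no member, every sign change fell in a member not called, and the cause was not tested.

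With library size alone the sign changed for Mmp2 (-0.13), Mmp13 (-0.017), Mmp14 (-0.14), Mmp28 (-0.12), Adamts6 (-0.21), Adamts7 (-0.041), Adamts9 (-0.026) and Adamts10 (-0.15). With wildtype 1 as the only control, assumed to vary like the knockout libraries, it changed for Mmp11 (0.14), Mmp14 (-0.037), Mmp16 (0.019), Mmp17 (0.13), Mmp23 (0.046), Mmp28 (-0.28), Timp1 (0.45), Adamts6 (-0.26), Adamts7 (-0.12), Adamts9 (-0.065), Adamts10 (-0.18), Adamts16 (-0.92), and of related genes for Thsd4 (-0.089), Pcolce (0.072), Pcsk6 (0.064), Fap (0.17) and Sparc (0.19). Adamts6, near 0, also changed sign with upper-quartile factors (-0.024), no filter (-0.0054), the stricter filter (-6.2e-05), voom (-0.069), voom with quality weights (-0.10) and the replicate block (-0.014), and Mmp15 with voom (0.043) and with quality weights (0.072). Leaving out single libraries gave ranges that crossed 0 for Mmp2 (-0.0084 to 0.15), Mmp13 (-0.038 to 0.41), Mmp14 (-0.016 to 0.1), Mmp15 (-0.22 to 0.21), Mmp16 (-0.31 to 0.13), Mmp28 (-0.25 to 0.26), Timp1 (-0.43 to 0.1), Adamts6 (-0.15 to 0.23), Adamts7 (-0.021 to 0.32), Adamts10 (-0.044 to 0.17), Adamts16 (-0.17 to 2.73), Adamts17 (-0.26 to 0.044), Fap (-0.25 to 0.14), Sparc (-0.26 to 0.15), Pcsk6 (-0.18 to 0.056), Col1a1 (-0.33 to 0.0057) and Fos (-0.29 to 0.049). Adamts16, Adamts20 and Mmp12 failed the stricter filter, so it gave them no value, and counts this low limit what can be said of them.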
